A study of Homo sapiens with 9 samples.

Results

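The 7 protein genes of the human mitochondrial genome that encode subunits of respiratory complex I were followed through 9 RNA-seq libraries of HaCaT cells. They were chosen by name, MT-ND1, MT-ND2, MT-ND3, MT-ND4, MT-ND4L, MT-ND5 and MT-ND6, and all 7 were found among the 78899 gene IDs of the count files. The family was taken up because MT-ND4 had already been seen to be lower in one sorted subpopulation, BD, than in the other, NBD. For that contrast the values describe what led to the choice, and the calls counted in it are no evidence about the family. The comparisons with control libraries use the same BD and NBD libraries and so are not independent of that choice.

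Complex I, or NADH:ubiquinone oxidoreductase, takes electrons from NADH, passes them to ubiquinone and pumps protons across the inner mitochondrial membrane. Its membrane arm is built around the subunits made inside the mitochondrion, while all its other subunits are encoded in the nucleus and imported. The mitochondrial genome is transcribed as long polycistronic RNAs that are cut at the tRNAs between the genes, so the mRNA level of a single gene depends on transcription, cutting and decay together.

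HaCaT is an established immortalized human keratinocyte line. Each group had 3 libraries of total RNA: BD, a subpopulation obtained by fluorescence-activated sorting, NBD, another such subpopulation, and control, the cell line itself. The labels do not spell out BD or NBD, name no genetic change or treatment, and give 1 growth medium, high-glucose DMEM with low-calcium serum, for all groups. Whether the replicates were grown as separate cultures is not stated, so each p-value reflects only how far these samples differ among themselves, which may be technical.

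Total counts were 17128797 to 29512856 per library, and the 7 genes took 0.0139% to 0.0706% of them. The Wilson 95% interval of that share spanned at most 0.00205 percentage points in a library and covers counting error only. All 8 keratinocyte markers stood at 5 CPM or more in each library (CPM, counts scaled to 1000000 per library after TMM normalisation). Summed levels were at most 0.414 CPM for 4 immune, 1.85 CPM for 4 melanocyte and 4.52 CPM for 5 fibroblast markers. For 3 endothelial markers they reached 18.9 CPM, nearly all from CDH5, with PECAM1 at 0.197 CPM or less. Control replicates 1 and 2 stood apart from control replicate 3, so results against control are also given without control replicate 3. EdgeR called 4317 genes for BD against control and 3228 for NBD against control without that library, and 0 for each with it. RNA was purified with 2 different kits, per the labels' protocols. The labels used here do not tie a kit to a library, so the part of the kit in any difference was not tested.

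The 7 genes lie on the GRCh38 mitochondrial chromosome with no introns, and their sequences are shown where they bear on how reads can be counted. MT-ND4 (bases 10760 to 12137) is the member with the most counts, and MT-ND6 (14149 to 14673) is the only member annotated on the minus strand. MT-ND6 carried 35.6% G and 7.05% C in its own reading direction, whereas the other 6 had 9.50% to 12.1% G and 29.5% to 36.0% C. The first 45 bases of both, from GENCODE 29, show this contrast, with the start codon in capitals.
MT-ND4, chrM:10760-10804, plus strand: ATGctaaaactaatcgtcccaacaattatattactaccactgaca
MT-ND6, chrM:14629-14673, minus strand: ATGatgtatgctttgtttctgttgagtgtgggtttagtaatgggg

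MT-ND4L (10470 to 10766) and MT-ND4 overlap by 7 bases, in capitals in the stretch across their junction. Both reading frames are known to be carried by a single mature mRNA. The counting rule for reads over the shared bases was not given in the sources used here.
MT-ND4L and MT-ND4, chrM:10722-10796, plus strand: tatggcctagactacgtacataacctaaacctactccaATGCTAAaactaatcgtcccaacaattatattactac

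The other members are MT-ND1 (3307 to 4262), MT-ND2 (4470 to 5511), MT-ND3 (10059 to 10404) and MT-ND5 (12337 to 14148). MT-ND1, MT-ND2, MT-ND3 and MT-ND4 end 1 or 2 bases into a codon in the annotation. Such mitochondrial stop codons are known to be completed by the poly(A) tail.

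BD libraries held less mRNA of all 7 genes than NBD libraries, relative to the library total. The summed level was 197, 141 and 159 CPM in BD libraries and 502, 755 and 505 CPM in NBD libraries, against 277, 307 and 232 CPM in control libraries. Each NBD library lay above each control library, and each control library above each BD library. The means were 166 ± 28.6 CPM in BD, 587 ± 145 CPM in NBD and 272 ± 37.9 CPM in control (SD, n = 3 each). In bulk RNA, fewer cells with a high level and less RNA per cell cannot be told apart. Small nucleolar RNAs, a class of non-coding RNA, took 0.126% to 0.145% of all counts in BD libraries and 0.572% to 0.745% in NBD libraries. In control replicates 1, 2 and 3 they took 1.07%, 1.19% and 0.509%. Mitochondrial rRNA made up 20.2 ± 2.61% of all counts for BD, 27.7 ± 1.09% for NBD, and 12.3%, 11.9% and 20.7% in the control libraries. With mitochondrial genes left out of the library totals, the median log2 fold change of the 7 genes for BD against NBD was -1.81. With them in the totals it was -1.83. Both fits were TMM-scaled, which limits the weight of a few very abundant RNAs, so these medians could differ little. The part of small nucleolar RNAs in the difference was not tested, nor was that of mitochondrial rRNA.

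**Figure D1:**
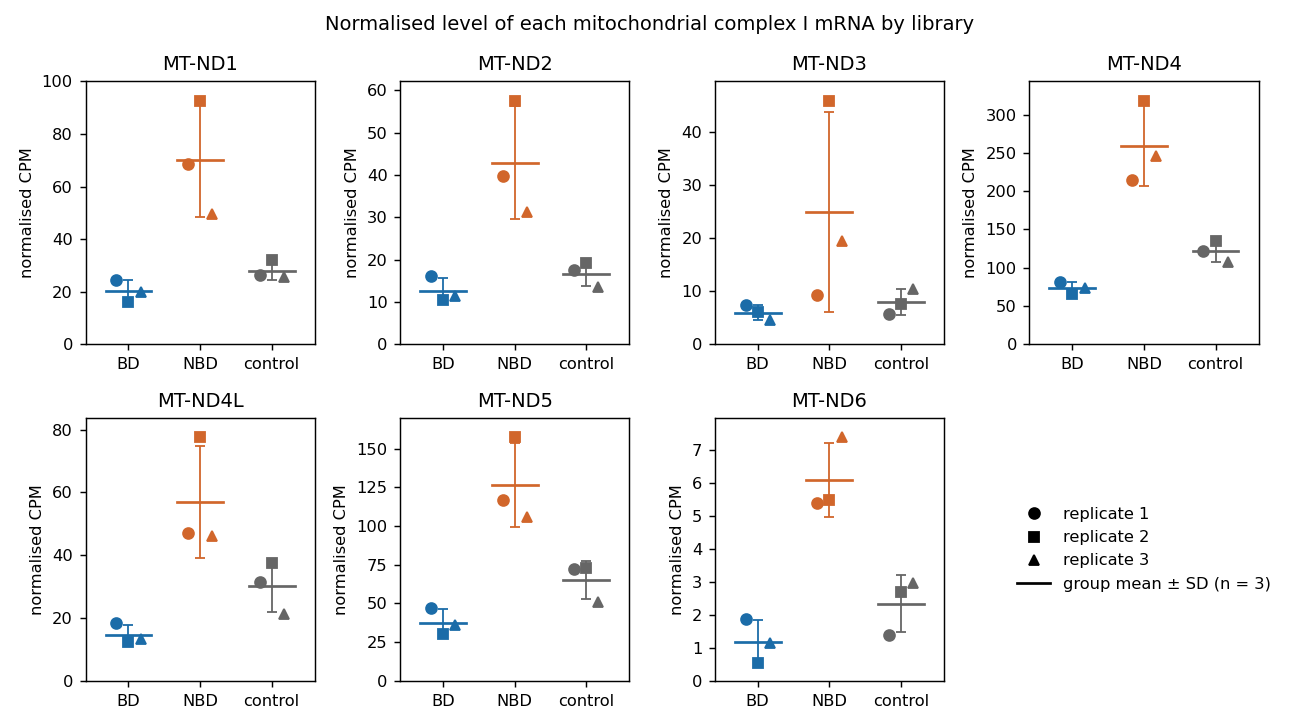
Normalised CPM of each of the 7 genes in the 3 BD, 3 NBD and 3 control libraries, with symbols for replicate numbers, a bar for the group mean and whiskers for the SD (n = 3). For MT-ND4 the NBD libraries sit between 215 and 319 CPM, above the control libraries at 107 to 135 CPM and the BD libraries at 65.1 to 81.8 CPM.

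MT-ND2, MT-ND4 and MT-ND5 encode the large antiporter-like subunits of the proton-pumping arm. MT-ND4 stood at 81.8, 65.1 and 73.0 CPM in BD libraries and 215, 319 and 246 CPM in NBD libraries, against 122, 135 and 107 CPM in control libraries. The groups did not overlap in any pairing, and BD was at 0.282 of the NBD level, a log2 fold change of -1.83 ± 0.20 (edgeR estimate ± standard error). MT-ND5 had 47.0, 30.0 and 36.1 CPM in BD libraries and 117, 157 and 106 CPM in NBD libraries, against 72.1, 72.8 and 51.1 CPM in control libraries. Its order was the same, with a log2 fold change of -1.75 ± 0.24 for BD against NBD. For MT-ND2 the values were 16.1, 10.6 and 11.3 CPM in BD libraries and 39.9, 57.6 and 31.3 CPM in NBD libraries, against 17.5, 19.2 and 13.4 CPM in control libraries. NBD was highest without overlap, BD and control overlapped, and the log2 fold change of BD against NBD was -1.76 ± 0.27.

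MT-ND1 encodes the subunit where the membrane arm meets the matrix arm, beside the ubiquinone site. It reached 24.4, 16.0 and 19.8 CPM in BD libraries and 68.5, 92.7 and 49.4 CPM in NBD libraries, against 26.4, 32.1 and 25.5 CPM in control libraries. The 3 groups did not overlap, although the highest BD and the lowest control library were close. BD against NBD gave a log2 fold change of -1.80 ± 0.25.

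MT-ND3, MT-ND4L and MT-ND6 encode small membrane subunits near the foot of the membrane arm. MT-ND4L was at 18.3, 12.5 and 13.3 CPM in BD libraries and 47.0, 77.6 and 46.1 CPM in NBD libraries, against 31.5, 37.7 and 21.4 CPM in control libraries, with no overlap between groups. Its log2 fold change for BD against NBD was -1.95 ± 0.29. MT-ND6 was the least counted, with 54, 14 and 33 counts in BD libraries and 146, 133 and 188 in NBD libraries, against 27, 48 and 79 in control libraries. In CPM that was 1.88, 0.550 and 1.14 in BD and 5.41, 5.50 and 7.40 in NBD, against 1.38, 2.69 and 2.98 in control. NBD was above the other groups, which overlapped, and BD against NBD gave -2.35 ± 0.47, the lowest estimate of the 7 and one of the least precise.

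MT-ND3 varied most between NBD libraries. It had 7.40, 6.01 and 4.48 CPM in BD libraries and 9.33, 45.9 and 19.4 CPM in NBD libraries, against 5.62, 7.63 and 10.4 CPM in control libraries. NBD replicate 2 was far above the other 8 libraries, and NBD replicate 1 fell within the control range. The log2 fold change of BD against NBD was -2.06 ± 0.51, and it lay between -2.45 and -1.26 over 16 alternative settings, at -1.26 without NBD replicate 2.

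All 7 genes passed the filter on low counts, and each was lower in BD than in NBD without overlap between the groups, as were 7.36% of all genes tested. At an adjusted p under 0.05 (quasi-likelihood F-test of edgeR, Benjamini-Hochberg over 16921 genes), 1 of 7, MT-ND4, was called lower, while 0.0177% of all genes were called. That share is 3 genes, and the other 2 are mitochondrial too, MT-ATP6 at -2.04 ± 0.23 and MT-CYB at -1.61 ± 0.20. The lower level was shared by the 6 other mitochondrial mRNAs, all below 0 at a median of -1.40, with MT-ATP8 at -2.20 ± 0.40, MT-CO2 at -1.20 ± 0.28, MT-CO1 at -1.07 ± 0.23 and MT-CO3 at -0.64 ± 0.41. These counts describe the contrast that led to the family and support nothing further. No member was called when any of the 3 BD libraries, NBD replicate 2, NBD replicate 3 or control replicate 1 was left out. Without control replicate 3 there were 5 called, beside 0.0901% of all genes, and DESeq2 called all 7, beside 0.383%. Of the 6 other mitochondrial mRNAs, 2 were called lower without control replicate 3 and 5 by DESeq2.

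Against control, BD libraries had lower point estimates for all 7 genes, and none passed the test with all libraries. The log2 fold changes of BD against control ran from -1.04 ± 0.28 for MT-ND4L (edgeR, adjusted p = 0.333) to -0.40 ± 0.27 for MT-ND2 (0.483), with a median of -0.73 beside a median of 0.03 over all genes. MT-ND4 was at -0.73 ± 0.20 (edgeR, adjusted p = 0.333), MT-ND5 at -0.79 ± 0.23 (0.333), MT-ND6 at -0.98 ± 0.46 (0.374), MT-ND1 at -0.48 ± 0.25 (0.392) and MT-ND3 at -0.41 ± 0.49 (0.688). MT-ND1, MT-ND4, MT-ND4L and MT-ND5 were lower in each BD library than in any control library, as were 7.72% of all genes, and the other 3 overlapped. Of 16921 genes edgeR called 0, or 0%, while 2334 had an unadjusted p under 0.05. MT-ND4, MT-ND4L and MT-ND5 were among those on the lower side, which came to 9.06% of all genes. DESeq2 called 167 genes, or 1.12% of those with an adjusted p, with MT-ND4 among them (adjusted p = 0.0496).

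The result against control depended on control replicate 3. Without it MT-ND4, MT-ND4L and MT-ND5 fell in BD by 0.80 ± 0.20, 1.22 ± 0.26 and 0.93 ± 0.22 on the log2 scale (edgeR, adjusted p = 0.0159, 0.00720 and 0.0132). In that fit 10.5% of all 17755 genes tested were called lower in BD, so 3 of 7 members has to be read against a background in which calls were common. MT-ND1, MT-ND2, MT-ND3 and MT-ND6 stood at -0.53 ± 0.26, -0.52 ± 0.27, -0.14 ± 0.52 and -0.75 ± 0.48 (adjusted p = 0.165, 0.178, 0.871 and 0.277). When control replicate 3 alone served as control, the estimates ran from -1.33 for MT-ND6 to -0.10 for MT-ND2, with adjusted p = 1.00 for each (edgeR, the lone control library taken to vary like the other groups).

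NBD libraries had higher point estimates than control for all 7 genes, again with no call when all libraries were used. MT-ND3 was at 1.65 ± 0.50, MT-ND6 at 1.37 ± 0.46, MT-ND2 at 1.36 ± 0.27, MT-ND1 at 1.32 ± 0.25, MT-ND4 at 1.10 ± 0.20, MT-ND5 at 0.96 ± 0.23 and MT-ND4L at 0.91 ± 0.28 on the log2 scale. Their median was 1.32 beside 0.04 over all genes, and each had an adjusted p of 0.539 by edgeR. The 6 other mitochondrial mRNAs were all above 0 as well, at a median of 1.44, with MT-CO1, MT-CO2 and MT-CO3 at 1.20 ± 0.23, 1.44 ± 0.28 and 1.46 ± 0.41 and the same adjusted p. All but MT-ND3 were higher in each NBD library than in any control library, as were 4.67% of all genes. EdgeR called 0 of 16921 genes, or 0%, in this contrast. There were 1545 genes below an unadjusted p of 0.05, all 7 members among them, and 4.05% of all genes were below it and higher in NBD. DESeq2 called 29 genes, or 0.172%, with MT-ND1, MT-ND2 and MT-ND4 among them (adjusted p = 0.00624, 0.00961 and 0.00190). It also called 5 of the 6 other mitochondrial mRNAs higher, all but MT-CO3.

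Leaving out control replicate 3 gave 6 members higher in NBD, as were all 6 other mitochondrial mRNAs, while 11.6% of all genes were called higher. MT-ND4 rose by 1.03 ± 0.21 (edgeR, adjusted p = 0.00813), MT-ND1 by 1.28 ± 0.28 (0.0104), MT-ND2 by 1.24 ± 0.28 (0.0124), MT-ND5 by 0.82 ± 0.23 (0.0328), MT-ND3 by 1.92 ± 0.54 (0.0334) and MT-ND6 by 1.61 ± 0.48 (0.0423). MT-ND4L was at 0.73 ± 0.26 without a call (0.0780). When control replicate 3 alone served as control, the estimates were 1.03 for MT-ND6 to 1.66 for MT-ND2, all with an adjusted p of 1.00. Over 17 alternatives the adjusted p of MT-ND4 for NBD against control ran from 0.00190 to 1.00. Without NBD replicate 2 the median over the 7 genes was 0.92, while MT-ND6 stood at 1.44.

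**Figure D2:**
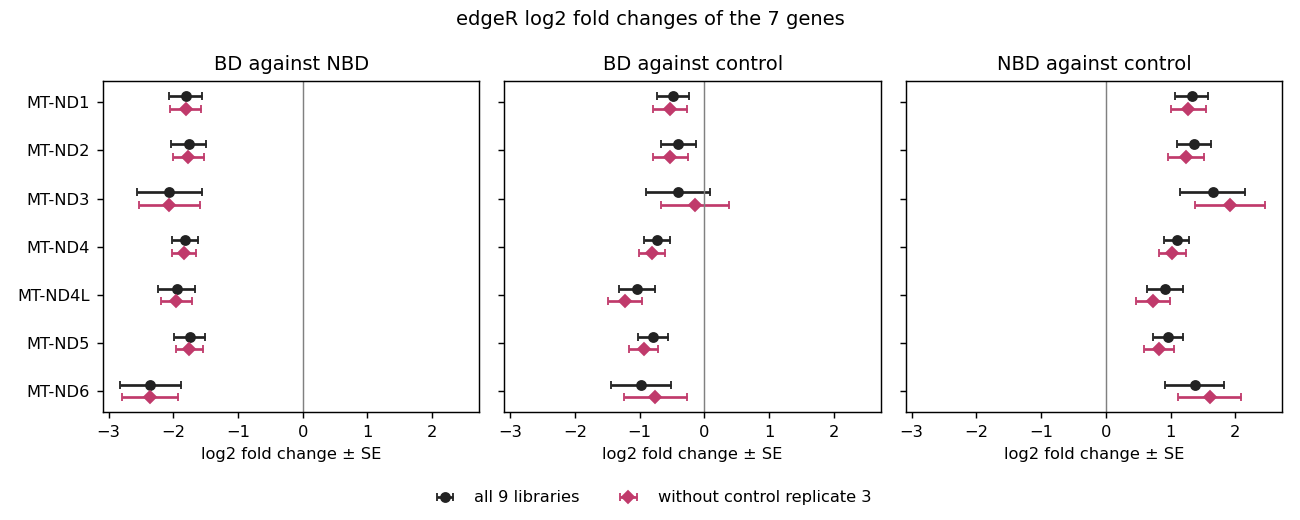
Log2 fold changes with standard errors of the 7 genes in each comparison, from the edgeR fit to all 9 libraries and from the fit without control replicate 3. For BD against NBD all estimates lie between -2.36 and -1.75 in both fits, for BD against control they lie below 0, and for NBD against control they lie above 0.

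Per kilobase of gene, the members kept a similar order in all groups. MT-ND4 and MT-ND4L held the first 2 ranks in each of the 9 libraries, MT-ND6 was last in each, MT-ND2 ranked 5 or 6, MT-ND1 and MT-ND5 ranked 3 to 5, and MT-ND3 ranked 3 to 6. Normalised CPM per kilobase averaged 53.2 ± 6.05 in BD, 188 ± 38.7 in NBD and 88.2 ± 10.3 in control for MT-ND4 (SD, n = 3 each). MT-ND4L, on the same mRNA, averaged 49.6 ± 10.6 in BD, 192 ± 60.3 in NBD and 102 ± 27.6 in control, so these neighbours in the order did not differ beyond their spread. MT-ND1 and MT-ND5 averaged 21.0 ± 4.40 and 20.8 ± 4.76 in BD and 73.4 ± 22.7 and 69.9 ± 14.9 in NBD. Their order changed between libraries in both groups. In control they averaged 29.3 ± 3.74 and 36.0 ± 6.81, with MT-ND5 above MT-ND1 in each library. MT-ND3 overlapped with both, at 17.2 ± 4.22 in BD, 71.8 ± 54.6 in NBD and 22.8 ± 6.99 in control. MT-ND2 came next with 12.1 ± 2.88 in BD, 41.2 ± 12.9 in NBD and 16.0 ± 2.82 in control. MT-ND6 was far lower, at 2.26 ± 1.27 in BD, 11.6 ± 2.14 in NBD and 4.47 ± 1.62 in control.

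The family stood far below the cytochrome c oxidase mRNAs of the same genome. Per kilobase, MT-CO1, a core subunit of complex IV, was 22.0 ± 1.01 times as high as MT-ND4 in BD (SD, n = 3) and 13.4 ± 2.21 times in NBD, and 9.57 to 16.7 times over the control libraries. For MT-CO3 the ratio to MT-ND4 was 57.3 ± 1.37 in BD and 25.8 ± 4.77 in NBD, while control replicates 1, 2 and 3 gave 11.1, 10.9 and 40.1. MT-CYB, cytochrome b of complex III, was in contrast close to MT-ND4, at 0.961 to 1.26 times its level per kilobase over the 9 libraries, and MT-ATP6 of ATP synthase at 0.737 to 1.18 times. The libraries also held 371 to 1325 counts of mitochondrial rRNA for each count of the family, although they were built with rRNA depletion. The annotated gene lengths were used, so a mapping or depletion difference between genes would enter these ratios, and this was not tested.

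**Figure D3:**
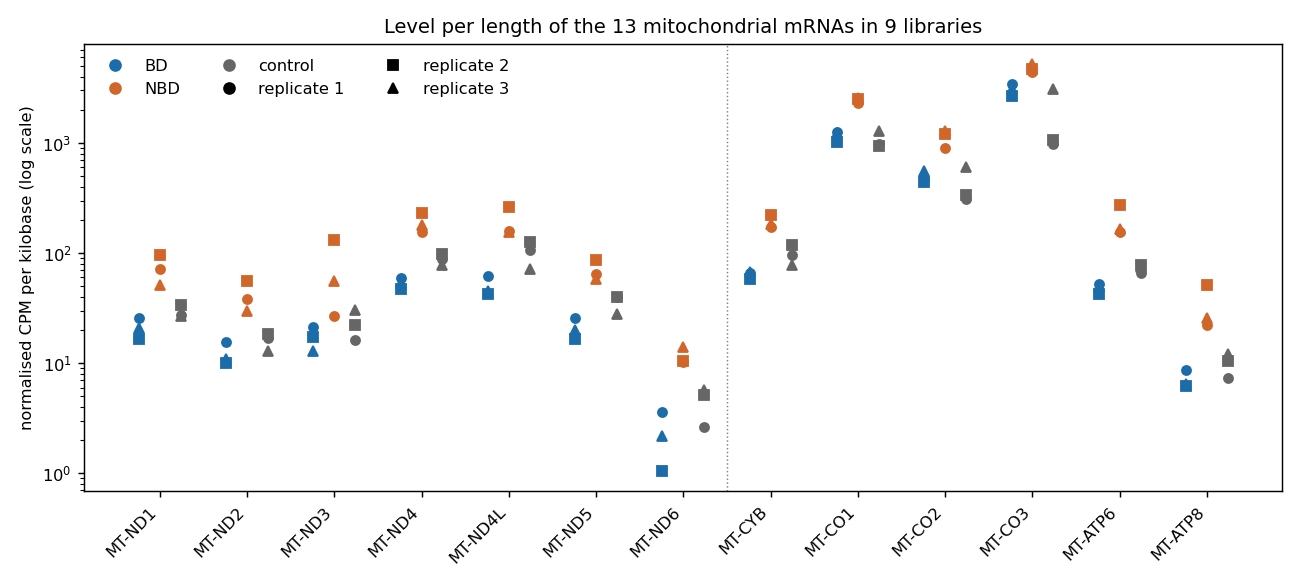
Normalised CPM per kilobase on a log scale for the 7 MT-ND genes (left of the dotted line) and the 6 other mitochondrial mRNAs (right), 1 point per library, coloured by group. MT-ND4, MT-ND4L, MT-CYB and MT-ATP6 sit at like heights within each group, with MT-CO1, MT-CO2 and MT-CO3 above them and MT-ND6 and MT-ATP8 below.

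Within the mitochondrial mRNAs, a measure that does not depend on the library total, the family took a smaller share in BD. Most counts of the other 6 mRNAs came from MT-CO1 and MT-CO3, with 56352 and 76893 of 145721 in BD replicate 1. The share is thus close to a ratio of MT-ND to MT-CO genes. It is not particular to complex I, since MT-CYB and MT-ATP6 stayed at 0.961 to 1.26 and 0.737 to 1.18 times MT-ND4 per kilobase. The 7 genes made up 3.74%, 3.37% and 3.20% of the counts of the 13 mRNAs in BD libraries and 5.95%, 7.90% and 5.20% in NBD libraries, against 9.46%, 10.2% and 4.44% in control libraries. Each BD library was below each NBD and each control library. BD averaged 3.44 ± 0.28% and control 8.03 ± 3.13% (SD, n = 3 each), with p = 0.10 in a two-sided exact permutation test, the smallest that 3 against 3 libraries can give. NBD averaged 6.35 ± 1.39% and overlapped with control (exact permutation p = 0.40). Adjusted over the 4 tests of this kind, 2 measures against control in each subpopulation, p was 0.40 for BD and 0.60 for NBD. Control replicate 3 lay nearer to BD than to control replicates 1 and 2. The difference from control was -4.59 percentage points for BD and -1.68 for NBD, and without control replicate 3 it was -6.38 for BD and -3.47 for NBD.

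For BD against control, the estimates of the complex IV genes lay above 0 with all libraries and without control replicate 3. They lay below 0, by less than their standard errors, when control replicate 3 alone served as control. MT-CO1, MT-CO2 and MT-CO3 stood at 0.13 ± 0.23, 0.24 ± 0.27 and 0.82 ± 0.41 on the log2 scale in BD against control, while MT-CYB and MT-ATP6 were at -0.62 ± 0.19 and -0.59 ± 0.22, close to the family. None of these 5 was called (edgeR, adjusted p = 0.795, 0.662, 0.383, 0.333 and 0.344). Without control replicate 3 the complex IV genes were at 0.30 ± 0.21, 0.61 ± 0.22 and 1.58 ± 0.23, with MT-CO3 called higher in BD and MT-CYB called lower at -0.75 ± 0.19 (edgeR, adjusted p = 0.337, 0.0623, 0.00113 and 0.0150). In that fit 13.8% of all genes were called higher in BD and 10.5% lower. With control replicate 3 alone as control, MT-CO1, MT-CO2 and MT-CO3 were at -0.15 ± 0.30, -0.29 ± 0.30 and -0.04 ± 0.31. The level of MT-CO3 itself differed among the control libraries, being 773 CPM in replicate 1, 842 CPM in replicate 2 and 2442 CPM in replicate 3.

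Within the family, the shares of the most abundant members varied less than those of the rarest. MT-ND4 made up 41.5% to 48.6% of the family's counts and MT-ND5 20.8% to 26.1% over the 9 libraries, while MT-ND3 ranged from 1.86% to 6.08% and MT-ND6 from 0.391% to 1.46%. MT-ND4L and MT-ND4 stood at a ratio of 0.926 ± 0.102 per kilobase in BD and 1.01 ± 0.13 in NBD, against 1.14 ± 0.19 in control. This puts both parts of their common mRNA near the same level. MT-ATP8 (8366 to 8572) and MT-ATP6 (8527 to 9207) also overlap but stood far apart. Their CPM per kilobase averaged 7.16 and 48.4 in BD, 33.1 and 199 in NBD, and 10.1 and 72.7 in control. MT-ND6 was at 0.102, 0.0418 and 0.0801 of the mean of the 6 plus-strand members in BD and at 0.120, 0.0728 and 0.160 in NBD, against 0.0534, 0.0906 and 0.137 in control. All 3 groups overlapped in this ratio. The two-sided exact permutation test gave p = 0.60 for BD against control and p = 0.50 for NBD against control (adjusted p = 0.60 for both over the 4 tests). BD differed from control by -0.0190, and without control replicate 3 the sign turned, at 0.00275. The libraries keep strand, but the strand setting of the counting was not given in the sources used here, so reads of the opposite strand in MT-ND6 cannot be told apart.

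**Figure D4:**
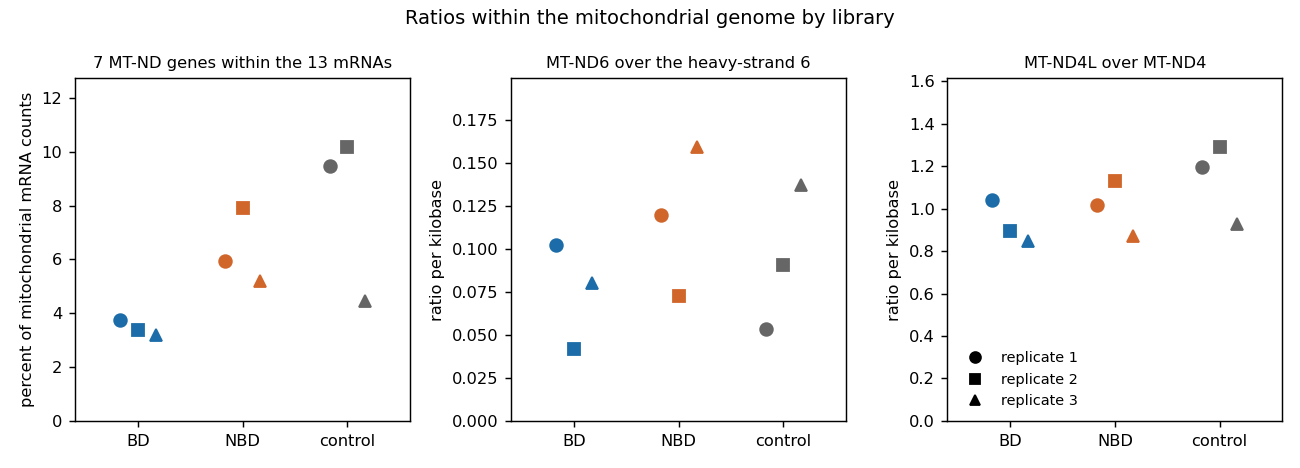
Share of the 7 genes in the counts of the 13 mitochondrial mRNAs, MT-ND6 over the mean of the 6 plus-strand members per kilobase, and MT-ND4L over MT-ND4 per kilobase, 1 point per library. The 3 BD libraries lie at 3.20% to 3.74% in the first panel, below the other 6, and the groups overlap in the other panels.

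Nuclear copies of these genes can share reads with them. The files list 217 such copies, of which 32 had a count, with 886 counts in all, or 1.17% of the family's own 75571. MTND2P28 on chromosome 1 (629640 to 630683) took 514 of the 557 counts at copies of MT-ND2, and these came to 10.4% of the counts of MT-ND2 itself. It aligned with MT-ND2 over 1042 bases at 98.4% identity. In the 90-base window where they differ most there are 5 differences, in capitals. A read matches both genes only if it covers no difference, and how many reads did so was not tested.
MT-ND2, chrM:4902-4991, plus strand: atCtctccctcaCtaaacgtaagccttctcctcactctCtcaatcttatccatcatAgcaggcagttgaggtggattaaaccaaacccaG
MTND2P28, chr1:630072-630161, plus strand: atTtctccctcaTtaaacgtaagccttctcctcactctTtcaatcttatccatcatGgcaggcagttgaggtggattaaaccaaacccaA

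MTND2P28 was the only copy that passed the filter. It had 46, 32 and 32 counts in BD libraries and 104, 125 and 88 in NBD libraries, against 25, 32 and 30 in control libraries, in the same order as MT-ND2 for BD and NBD. Its log2 fold change was -1.65 ± 0.35 for BD against NBD, -0.08 ± 0.35 for BD against control and 1.57 ± 0.35 for NBD against control, with no call (edgeR, adjusted p = 0.368, 0.922 and 0.539). Counts at the copies came to 2.35% of those of MT-ND6, 1.03% for MT-ND1, 0.847% for MT-ND5, 0.230% for MT-ND4 and 0.0348% for MT-ND3, and the copies of MT-ND4L had 0 counts.

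The nuclear genes for complex I were examined beside the mitochondrial ones. All 37 nuclear subunit genes were tested, and edgeR called 0 of them in each comparison with all libraries, as did DESeq2. Over all genes edgeR called 0.0177% for BD against NBD and 0% in each comparison with control. DESeq2 called 0.383% for BD against NBD, 1.12% for BD against control and 0.172% for NBD against control. With so few calls anywhere, 0 calls does not show that these genes were unchanged. For BD against NBD 29 of 37 were above 0, at a median log2 fold change of 0.08 and a range of -0.40 to 0.45, where 48.4% of all genes were above 0 and their median was -0.02. Those with the smallest p were NDUFS7, an iron-sulphur subunit of the matrix arm, with 48.2 ± 3.63 CPM for BD and 35.5 ± 5.12 CPM for NBD (0.44 ± 0.21), and NDUFB10, a membrane-arm accessory subunit, with 110 ± 16.1 CPM for BD and 84.5 ± 13.7 CPM for NBD (0.38 ± 0.23). Neither was called (edgeR, adjusted p = 0.814 and 0.829). No nuclear subunit lay within the range of the 7 mitochondrial genes in this comparison.

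Against control the nuclear subunits had a median of 0.15 in BD and 0.01 in NBD, beside 0.03 and 0.04 over all genes. For BD, NDUFB10 was at 0.59 ± 0.23 and NDUFA3, an accessory subunit, at 0.63 ± 0.28 (edgeR, adjusted p = 0.344 and 0.359). Without control replicate 3 both rose in BD, by 0.84 ± 0.21 and 0.97 ± 0.25 (adjusted p = 0.0172 and 0.0191), as the 2 called of 37 where 13.8% of all genes were called higher. For NBD 0 were called in that fit. NDUFA13 and NDUFA9 had the smallest p in NBD against control, at 1.01 ± 0.41 and -0.40 ± 0.20 (edgeR, adjusted p = 0.539 and 0.541). NDUFA13 was scarce, at 1.55 ± 0.42 CPM in NBD and 0.77 ± 0.12 CPM in control. NDUFA9 stood at 27.1 ± 2.38 CPM in NBD and 35.7 ± 7.80 CPM in control.

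**Figure D5:**
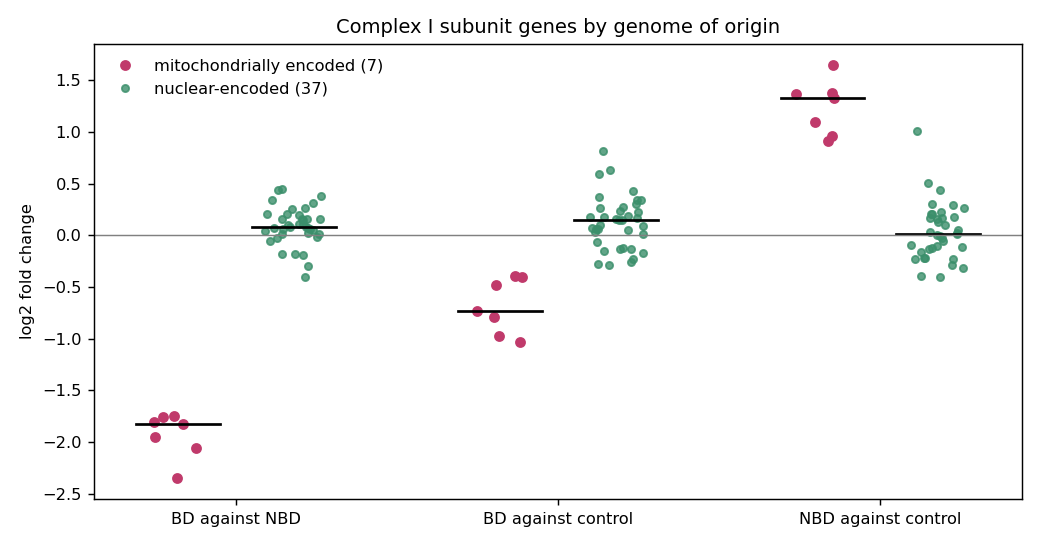
Log2 fold changes from the fit to all libraries for the 7 mitochondrially encoded and 37 nuclear-encoded subunit genes of complex I in each comparison, 1 point per gene, with bars at the medians. For BD against NBD the mitochondrial genes lie between -2.35 and -1.75 and the nuclear genes between -0.40 and 0.45.

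The genes that assemble complex I and those that make, process or keep mitochondrial RNA and DNA were examined in 4 further lists. With all libraries, 0 of their 61 members were called by edgeR or DESeq2 in any comparison. Over all genes the called share was at most 0.0177% by edgeR and 1.12% by DESeq2. These 0 calls therefore do not show that the listed genes were unchanged. For BD against NBD the medians were -0.02 for 19 assembly factors, -0.07 for 10 transcription genes, 0.00 for 21 RNA processing and stability genes and 0.00 for 11 DNA maintenance genes, beside -0.02 over all genes. The assembly factor ECSIT had 66.1 ± 12.6 CPM for BD and 40.6 ± 4.26 CPM for NBD (0.70 ± 0.26). MTERF2 of the termination factor family had 8.48 ± 0.45 CPM for BD and 11.7 ± 1.34 CPM for NBD (-0.46 ± 0.20). POLG2, the accessory subunit of the mitochondrial DNA polymerase, had 12.3 ± 1.21 CPM for BD and 17.5 ± 1.75 CPM for NBD (-0.51 ± 0.18). Each of these 3 had an adjusted p of 0.814 (edgeR), and they were the list members with an unadjusted p under 0.05.

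Calls in these lists against control appeared without control replicate 3, which for each named gene lay nearer to BD than to the other controls. For BD these were, of the transcription genes, TFAM, which packages and helps to transcribe the genome, at -0.91 ± 0.24, TFB1M at -0.87 ± 0.17, MTERF1 at -0.65 ± 0.21 and MTERF3 at -0.60 ± 0.18 (edgeR, adjusted p = 0.0187, 0.00503, 0.0436 and 0.0357). Of the RNA genes, PNPT1, which encodes the polynucleotide phosphorylase of mitochondria, fell by 1.11 ± 0.18 in BD and by 0.76 ± 0.18 in NBD (adjusted p = 0.00177 and 0.0145), and the helicase gene SUPV3L1 by 0.77 ± 0.19 in BD and 0.82 ± 0.19 in NBD (0.0155 and 0.0159). GRSF1, an RNA granule protein gene, was at -0.60 ± 0.19 in BD and -0.64 ± 0.19 in NBD (0.0422 and 0.0403). PDE12, a poly(A) exonuclease gene, was called in NBD at -0.71 ± 0.19 (0.0296), and TFB1M there at -0.56 ± 0.17 (0.0421). Of the DNA genes, TWNK, the replicative helicase, was at -1.33 ± 0.26 in BD and -1.33 ± 0.27 in NBD (0.00551 and 0.00721), and RNASEH1 at -0.59 ± 0.18 in BD (0.0325). In this fit 10.5% of all genes were called lower in BD and 6.56% in NBD. The assembly list had 4 of 19 called higher in BD, with ECSIT at 1.00 ± 0.22 and TMEM126B at 1.00 ± 0.28 (0.00844 and 0.0237), and 1 lower, NUBPL at -0.77 ± 0.18 (0.0123). In NBD 4 of 19 were called higher, with TMEM126B at 1.15 ± 0.28 (0.0179), where 13.8% of all genes in BD and 11.6% in NBD were called higher. In CPM, TFAM had 72.3 in control replicate 3 and 64.1 to 75.4 in BD libraries, against 137 and 125 in the other control libraries. TWNK had 11.9 in control replicate 3 and 12.5 to 16.0 in BD libraries, against 31.5 and 39.3 in the others. With all libraries TFAM, PNPT1 and TWNK were at -0.69 ± 0.28, -0.88 ± 0.24 and -0.98 ± 0.40 in BD, without a call. The calls thus describe a difference from the other control libraries, not from control replicate 3.

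Among 10450 other genes with a mean of at least 5 CPM, likeness to the family was measured as the root mean square difference between centred log2 CPM profiles over the 9 libraries. The nearest were MT-ATP6 at 0.14, MT-CYB at 0.22 and MTATP6P1, a nuclear copy of MT-ATP6 on chromosome 1, at 0.23. The members themselves lay between 0.13 for MT-ND4 and 0.48 for MT-ND6, but the family profile is their mean, which draws them nearer. Next came nuclear genes at a greater distance, RPL36A at 0.43, CPNE7 at 0.44, PNN at 0.45 and GABRE at 0.45. The family profile itself had a root mean square of 0.82, so these 4 follow it only in part. RPL36A, a ribosomal protein gene, stood at 7.57, 6.20 and 6.17 CPM in BD and 14.9, 14.4 and 12.0 CPM in NBD, against 9.66, 11.4 and 9.87 CPM in control.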

How the data were processed

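The authors deposited raw read counts per gene ID, 1 file for each of 9 libraries. Per the submitters' processing notes, the tools behind them were featureCounts, STAR 2.7.11b, Trimmomatic 0.39 and FastQC 0.74, and the genome was GRCh38. Annotation release, strand setting and treatment of multiple matches: not given in the sources used here. Symbols came from a gene name table (61458 of 78899 IDs) and positions, lengths and sequences from GENCODE 29, also on GRCh38.

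The 16921 genes passing filterByExpr were TMM-scaled and fitted by edgeR's quasi-likelihood method (version 4.0.16, R 4.3.3) with 1 term per group and 6 residual degrees of freedom. Two-sided p-values were adjusted by Benjamini-Hochberg over all genes tested, and calls were made under 0.05. Levels are counts relative to the TMM-scaled totals (CPM), given as mean ± SD with n = 3. DESeq2 1.42.0 was an alternative. The fit was tested on simulated counts. Exact tests used scipy 1.17.1, and plots matplotlib 3.10.9 in Python 3.11.15.

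The members and lists were chosen with earlier results of these data known. Named from each list were up to 4 called genes by size of change, or the 2 with the smallest p. The 5 nearest genes of any kind and the 5 nearest outside the mitochondrial genome were named by likeness, using log2 CPM with a prior count of 2. Replicates of 1 group differed by more than sampling noise.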

Additional observations from a re-analysis of the deposited data

How the results depend on the processing

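The direction of the median log2 fold change of the 7 genes was the same under all alternatives in each comparison. Leaving out 1 library at a time gave -2.00 to -1.56 for BD against NBD, -0.81 to -0.64 for BD against control and 0.92 to 1.43 for NBD against control. Calls were less stable. Members called for BD against NBD numbered 1 with all libraries, 0 to 5 with 1 library left out, 3 with upper-quartile factors, 7 with no filter, 7 by DESeq2 and 0 with the replicate block. Genes called numbered 3, and then 0 to 16, 8, 131, 57 and 0, and 5 with the 6 libraries compared. For BD against control 0 members and 0 genes were called, with 0 to 3 and 0 to 4317 with 1 library left out, 2 and 1162 with no filter, and 1 and 167 by DESeq2. For NBD against control these were 0 and 0, then 0 to 6 and 0 to 3228, 6 and 594, and 3 and 29. The replicate block called 0 genes against control, and MT-ND4 had an adjusted p of 0.0616 under it for BD against NBD (edgeR). The labels do not say that a number marks a shared culture or day, and 3 of 9 same-numbered pairs correlated below 0.1, so the numbers were used as names only. A library correlated best with its own number in 14 of 18 comparisons with another group, which is a hint of pairing from the data, not from the design. Leaving mitochondrial genes out of library totals changed no call of a member. With 1 library left out, the share of the family among the 13 mRNAs differed by -3.49 to -2.14 percentage points for BD against NBD, -6.38 to -3.51 for BD against control and -3.47 to -0.60 for NBD against control. The ratio of MT-ND6 to the other members differed by -0.0650 to -0.0216, -0.0391 to 0.00275 and 0.00258 to 0.0460. It reversed for BD against control, to 0.00275, without control replicate 3. The cause of these changes was not tested. With 3 libraries a group, an exact test cannot go below p = 0.10, and 14 to 188 counts per library limit MT-ND6.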
